A study of Mus musculus with 12 samples.

Results

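RNA levels of 8 genes of the caspase pathway were examined in spermatogonia from undescended and scrotal mouse testes. The genes are the caspases *Casp2*, *Casp6*, *Casp8* and *Casp9*, the apoptosome gene *Apaf1*, the inhibitor of apoptosis (IAP) genes *Xiap* and *Birc2*, and *Diablo*, whose product binds IAP proteins. They were taken by gene symbol and not by a rule on their values, but with earlier results of these data known. All 8 were found among the 21859 genes of the table. All 8 passed the limit for low expression and were tested. In GFRa1-EGFP mice aged 8 to 10 weeks, the left testis was fixed to the abdominal wall and the right testis stayed in the scrotum, and testes were taken on day 10 after surgery. Cryptorchid (n = 7) and control (n = 5) libraries come from these positions, all from mice carrying the EGFP reporter, with no other allele or agent named. The scrotal testis of an operated mouse served as control, so no unoperated animal is among the groups. No source links a library to its mouse. Nothing used here says that each library is from its own mouse, so *P*-values measure the spread between these libraries.

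Cells positive for the reporter of *Gfra1*, the GDNF receptor gene, and without surface KIT were sorted after cells stained by propidium iodide, which enters dead cells, had been gated out. Digestion before sorting took 9 min at 32°C for control and at 37°C for cryptorchid testes, so testis position and digestion temperature cannot be told apart. About 1000 cells were collected, and RNA equal to about 200 cells entered Smart-seq2, a full-length cDNA method that amplifies by PCR and uses no molecular identifiers. In such bulk samples a change in the share of cells of a type and a change in RNA per cell cannot be told apart. Reads on genes were 4511730 to 24345368 per control library and 3306771 to 20027902 per cryptorchid library. *Gfra1* and *Zbtb16*, markers of undifferentiated spermatogonia, had at least 1268 reads in every library, and *Kit* RNA was also present, with 82 to 969 reads. Libraries numbered 1 to 3 stood apart from those numbered 4 and above in both groups. The share of reads that fell on genes was 74.5% to 94.0% for numbers 1 to 3 and 94.8% to 99.9% for the others. Depth differed as well, with 6800360 to 24345368 reads on genes for numbers 1 to 3 and 3306771 to 5481947 for the others. No source used here says what separates these sets. Spermatid markers (8 of 8 in the table) summed to 493 to 2706 RPM (reads scaled to library size, the unit of the table) in control and 16.8 to 1839 RPM in cryptorchid libraries, with 3 of 8 below an unadjusted limma *P* of 0.05. Endothelial markers (5 of 5 in the table) summed to 10.0 to 28.4 RPM in control and 19.2 to 46.8 RPM in cryptorchid libraries, with 3 of 5 below that *P*. Markers of differentiating spermatogonia (6 of 6) summed to 236 to 560 RPM and 258 to 459 RPM, with 2 of 6 below it. In each of the 7 other marker lists, at most 1 gene was below it. Their part in the results below was not tested.

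Caspases are proteases made as inactive precursors that cut other proteins after aspartate. Initiator caspases are switched on by large assemblies: death receptors act through the adaptor FADD and caspase-8, and cytochrome c released from mitochondria makes APAF1 form the apoptosome, which activates caspase-9. Both routes end in executioner caspases. XIAP binds and blocks caspases, cIAP1 (the product of *Birc2*) acts mainly as a ubiquitin ligase in signalling from tumour necrosis factor receptors, and DIABLO leaves the mitochondria to displace XIAP from caspases. Germ cell apoptosis is a known feature of heat-stressed and undescended testes. Caspase activity is set by cleavage, which RNA levels do not measure.

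Of the 8 genes, 0 passed either threshold between cryptorchid and control libraries in limma's moderated test. Over all 16932 genes tested, 5.67% lay higher and 3.82% lower in cryptorchid libraries at an unadjusted *P* under 0.05. With a 2-fold difference required as well, the shares were 3.56% and 2.36%, and 0.0118% passed a Benjamini-Hochberg adjusted *P* of 0.05 in either direction. That last share, 2 genes, depended on the model: 46 genes passed with a term for the sets of replicate numbers, 476 with library weights and 949 with the replicate number as a block. The cryptorchid mean was above the control mean in 5 of 8 genes, against 56.7% of all genes. The median difference was 0.24 on the log2 scale for the 8 genes and 0.10 for all genes tested. *Xiap* came nearest to the threshold, with an unadjusted *P* of 0.0548 in limma. In every one of the 8 genes, the ranges of the groups overlapped. The share of all tested genes with overlapping ranges is not given here, so this does not set the 8 genes apart.

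**Figure D1:**
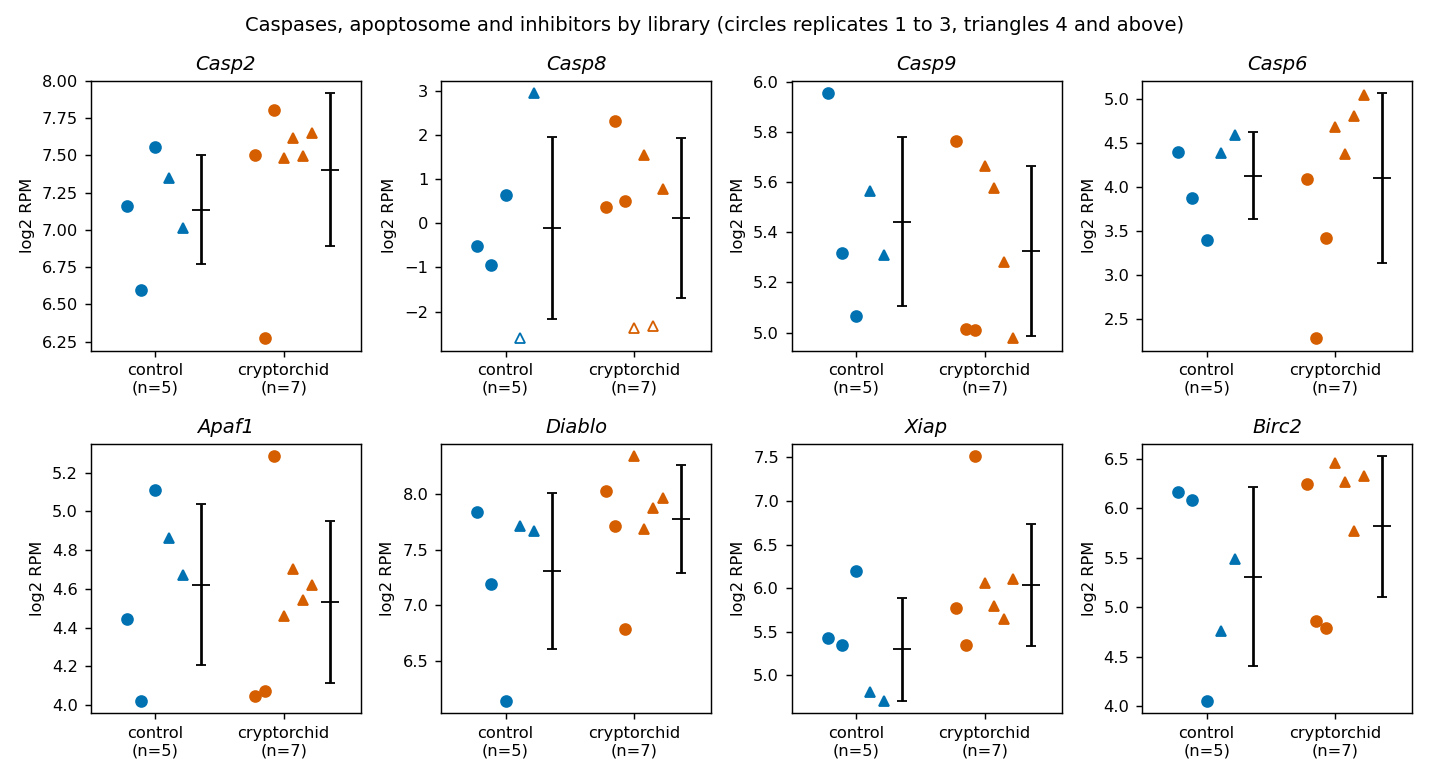
Log2 RPM (vertical axis, 1 scale per gene) of the 8 genes in 5 control (blue) and 7 cryptorchid (orange) libraries. Circles are replicates 1 to 3, triangles are replicates 4 and above, open symbols are libraries with 0 reads, and black bars are the group mean ± SD. The groups overlap in every panel, and the highest *Xiap* value, 7.52, belongs to cryptorchid replicate 3.

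Among the initiators, *Casp2*, a caspase activated outside the apoptosome, was the most abundant caspase of the set. The gene (ENSMUSG00000029863) lies at chr6:42264985-42282508 on the forward strand of GRCm38. Control libraries 1 to 5 had log2 RPM values of 7.16, 6.60, 7.56, 7.35 and 7.01. Cryptorchid libraries 1 to 7 had 7.51, 6.27, 7.81, 7.48, 7.62, 7.50 and 7.65. The lowest value of all 12 was in a cryptorchid library, while the other 6 cryptorchid libraries were all above 4 of the 5 control libraries. Group means were 7.14 ± 0.365 (SD, n = 5) and 7.40 ± 0.513 (SD, n = 7). The difference was 0.27 (SE 0.281, 95% interval -0.32 to 0.86), with a limma *P* of 0.351 and a Benjamini-Hochberg adjusted *P* of 0.797. The exact two-sided rank sum test gave *P* = 0.149, where the smallest value possible is 0.00253. The difference was 0.13 without control replicate 2 and 0.46 without cryptorchid replicate 2.

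*Casp8*, the initiator downstream of death receptors, was close to the limit of detection. The gene (ENSMUSG00000026029) lies at chr1:58795374-58847503. The control libraries had 17, 15, 16, 0 and 35 reads. The cryptorchid libraries had 29, 56, 12, 0, 10, 0 and 8 reads. Libraries with 0 reads occurred in both groups, and the highest level in RPM was in control replicate 5. The table gives a gene without reads the value of 0.9 reads, so the log2 RPM of those libraries, -2.61 to -2.34, depends on depth and is not a measured level. The difference in mean log2 RPM was 0.21 (95% interval -2.02 to 2.44), with a limma *P* of 0.843 and an adjusted *P* of 0.963 (Benjamini-Hochberg), and the exact rank sum *P* was 0.755. An interval that spans a 4-fold change in either direction means that a change of moderate size was not detectable in these libraries. The sign turned without control replicate 4 (-0.42), cryptorchid replicate 2 (-0.15) or cryptorchid replicate 5 (-0.0244).

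*Casp9*, the initiator that the apoptosome activates, had 147 to 1510 reads per library. The gene (ENSMUSG00000028914) lies at chr4:141793612-141815976. Its log2 RPM was 5.95, 5.32, 5.07, 5.56 and 5.31 in control libraries 1 to 5. It was 5.76, 5.02, 5.01, 5.66, 5.58, 5.28 and 4.98 in cryptorchid libraries 1 to 7. High and low libraries were mixed between the groups. The difference was -0.11 (SE 0.265, 95% interval -0.67 to 0.44), with a limma *P* of 0.670, an adjusted *P* of 0.918 and an exact rank sum *P* of 0.530. The interval holds a fold change of 0.627 to 1.36. Without control replicate 1, its highest library, the difference was 0.0132. Exons of *Casp9* overlap those of *Cela2a* and *Ctrc*, pancreatic protease genes on the opposite strand. The largest overlap with a single exon of each gene sums to 188 bases, which need not be the full extent. *Cela2a* and *Ctrc* had 39.5% to 193% and 41.8% to 197% as many reads as *Casp9*. Since it is not stated whether counting used strand, the reads of *Casp9* are uncertain.

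*Casp6*, the executioner of the set, cuts nuclear lamins among other proteins. The gene (ENSMUSG00000027997) lies at chr3:129901425-129914103. Log2 RPM was 4.40, 3.87, 3.39, 4.39 and 4.59 in control libraries 1 to 5. It was 4.09, 2.27, 3.42, 4.68, 4.38, 4.80 and 5.04 in cryptorchid libraries 1 to 7. Cryptorchid libraries held both the highest and the lowest value. Group means were 4.13 ± 0.492 (SD, n = 5) and 4.10 ± 0.966 (SD, n = 7), a difference of -0.03 (95% interval -0.99 to 0.94) with a limma *P* of 0.952, an adjusted *P* of 0.990 and an exact rank sum *P* of 0.755. The sign of this difference turned when cryptorchid replicate 2 was left out (0.28, limma adjusted *P* = 0.806), and likewise without cryptorchid replicate 3 (0.0851) or control replicate 1, 4 or 5 (0.0395, 0.0370 and 0.0887).

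*Apaf1* encodes the scaffold of the apoptosome. The gene (ENSMUSG00000019979) lies at chr10:90989311-91082770 on the reverse strand. Control libraries 1 to 5 had log2 RPM values of 4.45, 4.02, 5.11, 4.86 and 4.67. Cryptorchid libraries 1 to 7 had 4.05, 4.07, 5.29, 4.46, 4.70, 4.54 and 4.62. The values spread as widely within the groups as between them. The difference was -0.09 (SE 0.317, 95% interval -0.76 to 0.58), with a limma *P* of 0.783, an adjusted *P* of 0.949 and an exact rank sum *P* of 0.876. Without control replicate 3 it was 0.0335. Within a library, *Casp9* exceeded *Apaf1* by a mean log2 RPM of 0.82 ± 0.611 (SD) in control and 0.79 ± 0.630 (SD) in cryptorchid libraries, a quantity that is not corrected for gene length.

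*Diablo* encodes the mitochondrial antagonist of XIAP. The gene (ENSMUSG00000029433) lies at chr5:123509765-123524176 on the reverse strand. Log2 RPM was 7.84, 7.19, 6.14, 7.71 and 7.67 in control libraries 1 to 5. It was 8.03, 7.72, 6.79, 8.34, 7.69, 7.87 and 7.97 in cryptorchid libraries 1 to 7. Replicate 3 was the lowest library in both groups, and 4 of 7 cryptorchid libraries lay above the highest control library. The difference was 0.46 (SE 0.323, 95% interval -0.22 to 1.14), with a limma *P* of 0.170, an adjusted *P* of 0.686 and an exact rank sum *P* of 0.106. Without control replicate 3 it was 0.17. *Gm49027*, a gene model on the same strand at chr5:123512082-123525488 that was named after its values were seen, shares exons with *Diablo*. It had 93.8% to 98.6% as many reads as *Diablo* in each library, so the reads of the pair cannot be assigned to one gene and the level of *Diablo* is uncertain.

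*Xiap*, the IAP that blocks caspases directly, had the largest difference among the 8 genes. The gene (ENSMUSG00000025860) lies at chrX:42059679-42109656. Control libraries 1 to 5 had log2 RPM values of 5.42, 5.34, 6.20, 4.81 and 4.71. Cryptorchid libraries 1 to 7 had 5.77, 5.34, 7.52, 6.06, 5.80, 5.65 and 6.10. Cryptorchid replicate 3 was alone above 7, and control replicate 3 was the highest control library and lay above 6 of 7 cryptorchid libraries. Group means were 5.30 ± 0.595 (SD, n = 5) and 6.03 ± 0.702 (SD, n = 7). The difference was 0.74 (SE 0.358, 95% interval -0.02 to 1.49), a 1.67-fold higher geometric mean, with a limma *P* of 0.0548 and an adjusted *P* of 0.537. The exact two-sided rank sum test gave *P* = 0.149. The unadjusted *P* fell on the other side of 0.05 in 7 of 25 alternative analyses, in which limma's adjusted *P* ran from 0.0488, with weights for library quality, to 0.999989. Without cryptorchid replicate 3 the difference was 0.49, and without control replicate 3 it was 0.96, with an unadjusted limma *P* of 0.0150 and an adjusted one of 0.268. Leaving out cryptorchid replicate 2 or 6 also crossed the unadjusted threshold, at 0.85 and 0.80.

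*Birc2*, which encodes cIAP1, had the second largest difference. The gene (ENSMUSG00000057367) lies at chr9:7818227-7837064 on the reverse strand. Log2 RPM was 6.16, 6.09, 4.05, 4.76 and 5.49 in control libraries 1 to 5. It was 6.25, 4.86, 4.79, 6.46, 6.27, 5.77 and 6.33 in cryptorchid libraries 1 to 7. Low values were found in both groups, and 4 of 7 cryptorchid libraries were above the highest control library. The difference was 0.51 (SE 0.408, 95% interval -0.35 to 1.37), with a limma *P* of 0.229, an adjusted *P* of 0.729 and an exact rank sum *P* of 0.149. Without control replicate 3 it was 0.19. Measured against *Diablo* in the same library, the log2 RPM of *Birc2* differed by -2.95 to -1.11 in control and by -2.85 to -1.42 in cryptorchid libraries, with no correction for length.

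**Figure D2:**
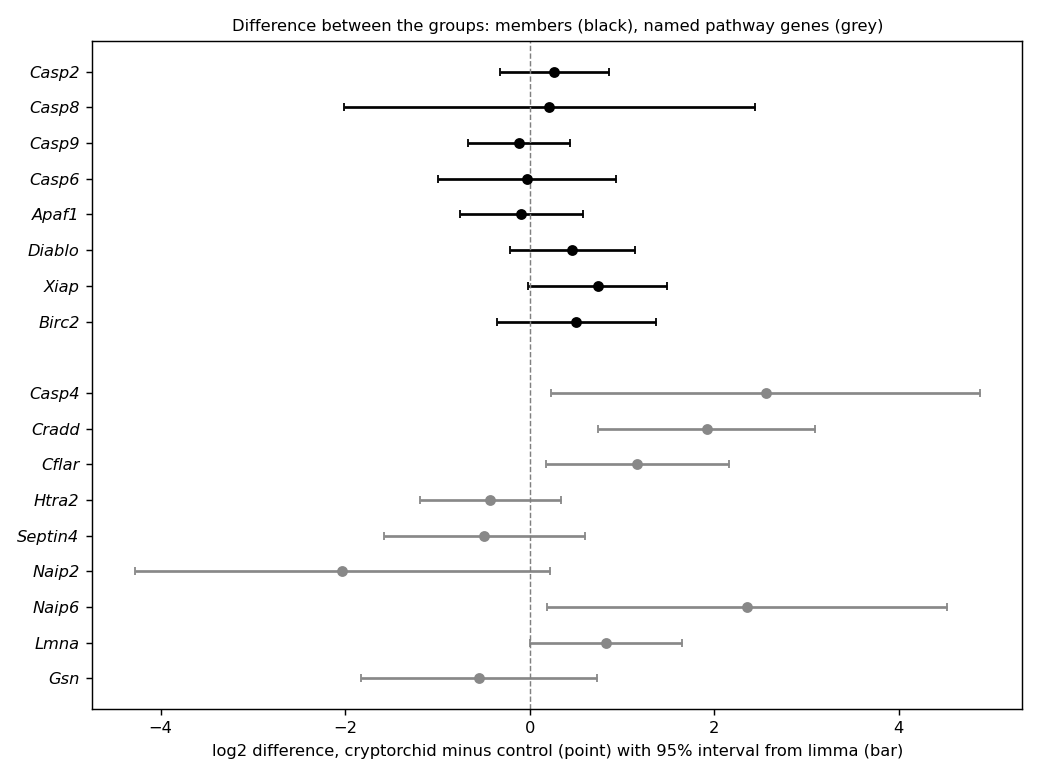
Log2 difference between cryptorchid and control means (points) with the 95% interval from limma (bars) for the 8 genes (black) and for the pathway genes named in the text (grey). All 8 black intervals cross 0, with *Xiap* reaching down to -0.02, and *Cradd* has a grey interval of 0.74 to 3.09.

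Because the libraries numbered 1 to 3 stood apart from the others, each difference was also taken within these sets, 3 against 3 and 2 control against 4 cryptorchid libraries. *Xiap* differed by 0.55 on the log2 scale in the former and by 1.14 in the latter. In the latter, its control values of 4.81 and 4.71 lay below the cryptorchid range of 5.65 to 6.10, a separation that the former set did not have. The control values of *Birc2* (4.76 and 5.49) and *Casp2* (7.35 and 7.01) also lay below every cryptorchid value of that set. With only 2 control libraries such a separation arises easily, and its share over all genes was not counted. *Birc2* differed by -0.13 and 1.08, *Casp6* by -0.62 and 0.24, and *Casp8* by 1.34 and -0.77. *Casp2*, *Diablo*, *Casp9* and *Apaf1* kept their sign in both sets. The change in the difference between the sets was tested with an interaction term in limma, which was chosen after seeing the data. Its Benjamini-Hochberg adjusted *P* was 0.9996 for each of the 8 genes, and its lowest unadjusted *P* was 0.138, for *Birc2*.

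**Figure D3:**
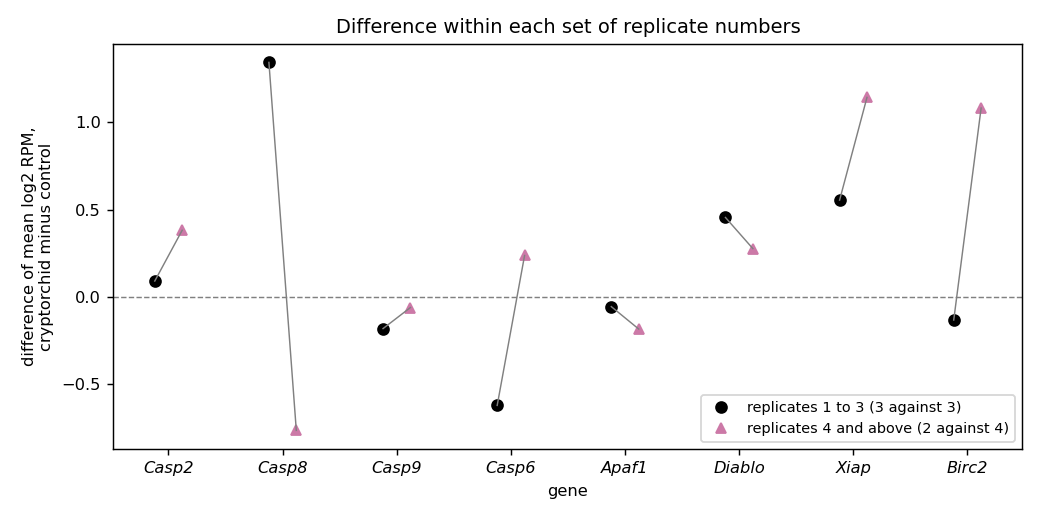
Difference in mean log2 RPM, cryptorchid minus control, within replicates 1 to 3 (black circles) and within replicates 4 and above (pink triangles) for each gene, joined by a line. *Birc2*, *Casp6* and *Casp8* lie on opposite sides of 0 in the sets, and *Xiap* is above 0 in both.

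Levels of different genes were compared per length, as RPM per kilobase of annotated exon. *Diablo* had the highest mean level over the 12 libraries, 56.4, with the uncertainty over its shared exons given above. *Casp2* followed at 46.3, and it was below *Diablo* in 10 of 12 libraries and above *Birc2* (15.1) in 12 of 12. *Birc2*, *Casp6* (13.2) and *Casp9* (10.9) were not separated, since *Birc2* exceeded *Casp6* in 7 of 12 and *Casp6* exceeded *Casp9* in 6 of 12 libraries. *Casp9* exceeded *Xiap* (7.64) in 9 of 12 libraries. *Apaf1* had 2.98 and *Casp8* 0.660, and *Apaf1* was above *Casp8* in 12 of 12 libraries. The inhibitor *Xiap* was thus present at a lower level per length than the caspase transcripts *Casp2*, *Casp6* and *Casp9* on average, and only *Apaf1* and *Casp8* were lower. For *Casp9*, the uncertainty over its reads given above applies. Group means of *Xiap* and *Casp9* were 5.30 ± 2.38 (SD) and 11.4 ± 2.81 (SD) in control libraries. In cryptorchid libraries they were 9.31 ± 6.15 (SD) and 10.5 ± 2.49 (SD).

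**Figure D4:**
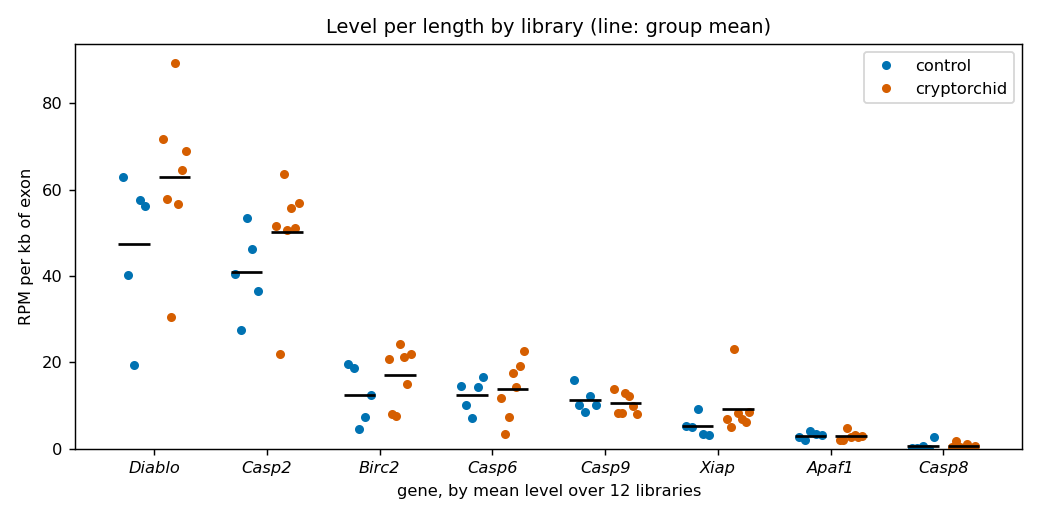
RPM per kilobase of exon (vertical axis, linear) for each gene in order of its mean over the 12 libraries. Points are control (blue) and cryptorchid (orange) libraries and lines are group means. *Diablo* and *Casp2*, with means of 56.4 and 46.3, stand above the other genes, and *Casp8* lies at 0.660.

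The sequence ahead of the start site was set beside these levels for the most abundant and the rarest caspase. Windows of 300 bases, 250 before and 50 after each RefSeq start (GRCm38.p6), were found for 8 of 8 genes and numbered 11. The 250 bases ahead of the start are shown 5′ to 3′ for *Casp2* (chr6:42264735-42264984, forward strand) and *Casp8* (chr1:58802252-58802501, forward strand), with CG dinucleotides, the targets of DNA methylation, in capitals.
Casp2: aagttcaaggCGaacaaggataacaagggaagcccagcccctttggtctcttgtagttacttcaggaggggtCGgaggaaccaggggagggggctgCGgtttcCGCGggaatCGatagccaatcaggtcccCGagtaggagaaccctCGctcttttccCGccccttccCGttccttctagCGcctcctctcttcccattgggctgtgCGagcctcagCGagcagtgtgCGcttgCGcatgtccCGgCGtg
Casp8: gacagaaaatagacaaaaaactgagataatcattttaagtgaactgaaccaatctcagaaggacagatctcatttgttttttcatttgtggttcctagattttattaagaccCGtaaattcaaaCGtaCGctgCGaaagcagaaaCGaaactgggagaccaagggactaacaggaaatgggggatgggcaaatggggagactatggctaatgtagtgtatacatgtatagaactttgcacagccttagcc
The *Casp2* stretch holds 17 CG dinucleotides at 60.4% G and C, and the *Casp8* stretch holds 5 at 39.6%. The *Casp8* stretch lies within an intron of longer *Casp8* transcripts. In the full windows *Casp2* has 26 and *Casp8* has 5, against a median of 7 over 32851 mouse windows. The *Apaf1* window has the most CG dinucleotides of the 11, 46, although *Apaf1* is the gene second from last in level. The letters GAANNTTC, the core of a heat shock element, occur in 0 of the 11 windows and in 7.86% of all windows. GGGCGG (a GC box) occurs in 8 of the 11 windows (35.7% of all windows), CCAAT in 4 (37.4%) and TATAAA in 1, a window of *Xiap* (13.6%). Both strands were searched. A match describes the letters only, and no binding was measured here.

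The gene whose log2 RPM followed each of the 8 most closely over the 12 libraries was found among 11413 genes, as a description without a test. All points share their libraries and their depth with the gene they are compared with. *Apaf1* was most like *Tns3* (Pearson *r* = 0.9502), *Birc2* most like *Trappc13* (0.966), *Casp2* most like *Bmpr1b* (0.965) and *Casp6* most like *Fam45a* (0.968). *Casp9* was most like *Lpcat3* (0.915), *Xiap* most like *C2cd3* (0.934) and *Casp8* most like *Ap4e1* (0.762). *Diablo* was most like *Gm49027* (0.9996), with which it shares exons.

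Other genes of the pathway were read from 5 lists, of which 43 genes were in the table and 39 were tested. Of these, 5 were higher and 0 lower at an unadjusted limma *P* under 0.05, and 0 passed the adjusted *P*. Over all genes tested, the shares at the same unadjusted threshold were 5.67% higher and 3.82% lower. The 39 genes had a median difference of 0.03 on the log2 scale, against 0.10 for all genes. The 5 genes were *Cradd*, *Cflar*, *Casp4*, *Naip6* and *Lmna*. With each library left out in turn, the number past the unadjusted threshold ran from 2 to 6, and it was 2 without control replicate 1, control replicate 4 or cryptorchid replicate 1. *Cradd* stayed past that threshold in all 12 of these fits.

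*Cradd* encodes the adaptor that links caspase-2 to PIDD1 in a complex called the PIDDosome, and it had the lowest *P* of the lists. Its log2 RPM was 0.79, 2.49, 2.99, 3.67 and 3.58 in control libraries 1 to 5. It was 3.81, 2.89, 5.03, 5.55, 5.59, 4.78 and 4.71 in cryptorchid libraries 1 to 7. The ranges overlapped through cryptorchid replicate 2, and the other 6 cryptorchid libraries were above every control library. The difference was 1.92 (SE 0.559, 95% interval 0.74 to 3.09, limma *P* = 0.00302, adjusted *P* = 0.251 by Benjamini-Hochberg), or 3.78-fold, with an exact rank sum *P* of 0.0177. It was 1.82 within replicates 1 to 3 and 1.53 within replicates 4 and above. Library weights brought its adjusted limma *P* to 0.0366. Exons of *Cradd* overlap *Gm48882* on the other strand, with 124 bases as the largest overlap with a single exon of *Gm48882*. The reads of *Cradd* are therefore uncertain in the same way as those of *Casp9*. *Pidd1*, the third gene of that complex, named after its values were seen, had a difference of -0.32 (95% interval -1.15 to 0.51, limma adjusted *P* = 0.837).

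**Figure D5:**
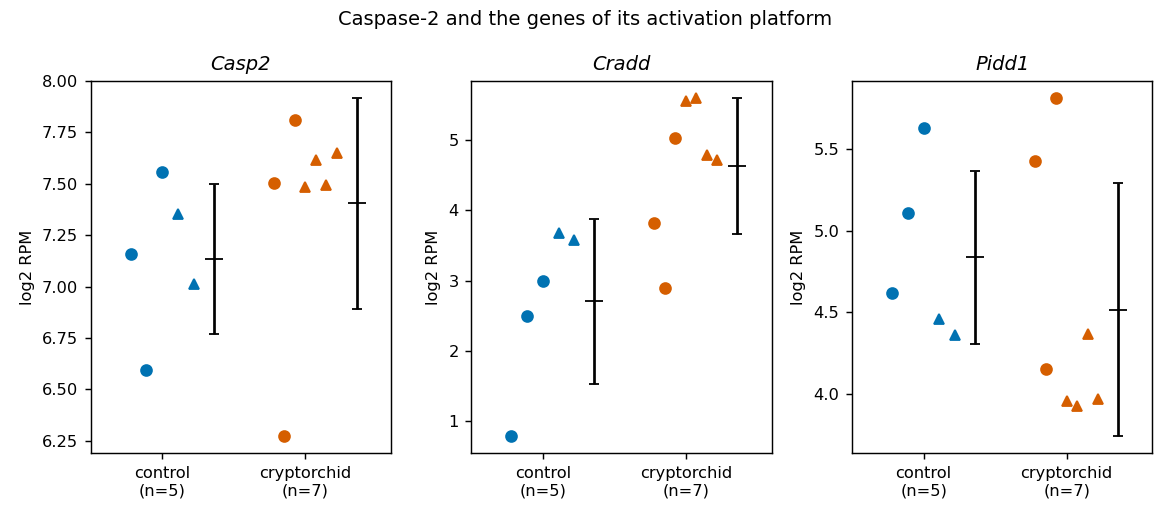
Log2 RPM of *Casp2*, *Cradd* and *Pidd1* by library, with symbols and bars as in the plot of the 8 genes by library (circles replicates 1 to 3, triangles 4 and above, bars mean ± SD). In *Cradd*, 6 of 7 cryptorchid libraries are above the highest control library at 3.67. In *Casp2*, 3 of 7 are above the highest control library and 1 is below the lowest. In *Pidd1*, 4 of 7 are below the lowest control library and 1 is above the highest.

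*Cflar* encodes c-FLIP, which pairs with caspase-8 at death receptors and restrains it, and the gene lies next to *Casp8* at chr1:58711508-58758884. Its log2 RPM was 2.75, 1.44, 3.47, 1.93 and 4.05 in control libraries 1 to 5. It was 3.75, 3.89, 3.66, 4.18, 4.42, 3.51 and 3.86 in cryptorchid libraries 1 to 7. The cryptorchid values kept to a narrow band (SD 0.310), whereas control values spread more widely (SD 1.07), and control replicate 5 lay inside that band. The difference was 1.17 (SE 0.471), with a limma *P* of 0.0234, an adjusted *P* of 0.447 and an exact rank sum *P* of 0.0480. When each library was left out in turn, the limma *P* of *Cflar* ran from 0.00602 to 0.0809. *Fadd*, the adaptor that recruits caspase-8, had a difference of -0.74 (limma adjusted *P* = 0.826).

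*Casp4*, a caspase of inflammatory cell death, had 2 reads in all control libraries together and 119 in the cryptorchid libraries, with 4 of 5 and 4 of 7 libraries at 0. Its difference of 2.56 (limma adjusted *P* = 0.479) depends on the value given to libraries without reads, and with a common floor it was 1.38, with an unadjusted limma *P* of 0.119. *Naip6*, one of several near-identical *Naip* copies whose reads counting can split, had a difference of 2.36 (limma adjusted *P* = 0.483), and its paralog *Naip2* one of -2.03 (limma adjusted *P* = 0.575). *Lmna*, the lamin A gene whose product executioner caspases cut, had a difference of 0.83 (limma adjusted *P* = 0.524).

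*Casp1*, *Casp12* and *Casp14* were below the limit for low expression. Among the 6 genes for proteins that mitochondria release, 1 had a higher cryptorchid mean, and 0 were below an unadjusted *P* of 0.05 in either direction. In that list *Septin4*, whose ARTS isoform binds XIAP, had a difference of -0.49 (limma adjusted *P* = 0.799), and the protease gene *Htra2* one of -0.43 (limma adjusted *P* = 0.745). Exons of *Htra2* overlap *Aup1* and *Loxl3* on the other strand, and those of *Septin4* overlap *Gm11492* on the same strand. The reads of *Htra2* and *Septin4* are therefore uncertain. The largest overlaps with a single exon sum to 586 bases for *Aup1* and *Loxl3*, beside 1782 exon bases of *Htra2*. For *Gm11492* the largest was 45 bases. Of the 12 genes for substrates cut in the execution phase, 7 had a higher cryptorchid mean, and *Gsn*, the gelsolin gene, had the most negative difference, -0.55 (limma adjusted *P* = 0.813).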

How the data were processed

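RNA-seq was done on 12 libraries. The authors trimmed reads with Trim Galore 0.6.6, mapped them to mm10 with HISAT2 2.1.0, and counted protein-coding genes with SeqMonk. The deposited unit is log2 RPM, scaled by the authors to a library total. The strand setting of the counting is not given in the sources used here. RPM steps gave whole reads in 100% of the values checked (up to 1000 reads, tolerance 0.02), with the lowest value set to 0.9 reads. Reads and intervals cover counting error only where they count reads.

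Libraries were grouped by their titles. The authors tested with edgeR on counts. The deposited values are on a log scale, so limma 3.58.1 (lmFit, eBayes with trend, R 4.3.3) was used instead, on all 5 control and 7 cryptorchid libraries, over 16932 genes with log2 mean RPM above -1, with Benjamini-Hochberg adjustment over these genes. Calls required 2-fold and an unadjusted *P* under 0.05. Exact two-sided rank sum tests enumerated every split into 5 and 7. Python 3.11.15, numpy 2.4.6, pandas 2.3.3, scipy 1.17.1 and matplotlib 3.10.9 were used. Positions are from GENCODE vM21, and promoter windows from RefSeq. Tested on simulated libraries where 200 of 16932 genes had a log2 difference of 3, the fit recovered 99.5% at an adjusted *P* under 0.05. Of the genes that passed this adjusted limit, 2.45% were false. Of the unchanged genes, 4.81% had an unadjusted limma *P* under 0.05. The rule for calls, 2-fold and an unadjusted *P* under 0.05, was not itself checked in this way. The largest difference among the 8 genes was 0.74, and the simulated libraries held no sets of replicate numbers. The recovery rate therefore does not apply to differences of the size reported here.

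The 8 genes, the pathway and marker lists and the tests were chosen with earlier results of these data known. Named genes were the 8, every list gene with an unadjusted *P* under 0.05, the 2 genes of each list with the largest difference, and for each of the 8 the most alike gene with log2 mean RPM above 3. *Pidd1*, *Fadd* and *Gm49027* were named after their values were seen. Some genes that entered the counts are not reported here. Alternatives were other normalizations, log2(RPM + 1), other filters, a common floor, library weights, voom on recovered reads, a replicate block, a term for the sets of replicate numbers, each set alone and each library left out. The interaction and the alternatives for pathway genes were added after seeing the data.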

Additional observations from a re-analysis of the deposited data

Results flagged for a closer look

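Single libraries far from their group were looked for in groups of 5 and 7 libraries by Dixon's ratio of the gap to the range, over 36 groups of 18 genes, of which chance flags about 1 in 20. In *Casp2*, cryptorchid replicate 2 had a log2 RPM of 6.27 (862 reads), against 7.48 to 7.81 in the other cryptorchid libraries. In *Xiap*, cryptorchid replicate 3 had 7.52 (1539 reads), against 5.34 to 6.10 in the others. In *Diablo*, cryptorchid replicate 3 had 6.79 (932 reads), against 7.69 to 8.34 in the others. These were 3 of the 36 groups, and the cause was not tested.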

How the results depend on the processing

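Directions of the near-zero differences depended on the setting. Library weights gave 0.15 for *Casp6*, -0.46 for *Casp8*, 0.97 for *Xiap* and 0.84 for *Birc2*. Replicates 4 and above alone gave 0.38 for *Casp2*, 0.24 for *Casp6*, -0.77 for *Casp8*, 1.14 for *Xiap* and 1.08 for *Birc2*, with 2 of the 8 genes called. Replicates 1 to 3 alone gave -0.13 for *Birc2*. A term for the sets gave 0.83 for *Xiap*. Genes called over all genes numbered 1002, against 1585 with library weights, 1340 in replicates 4 and above alone and 632 in replicates 1 to 3 alone. With each library left out in turn, differences ran from -0.21 to 0.28 for *Casp6*, -0.42 to 0.98 for *Casp8*, -0.21 to 0.0132 for *Casp9*, -0.24 to 0.0335 for *Apaf1* and 0.49 to 0.96 for *Xiap*. They ran from 0.13 to 0.46 for *Casp2*, 0.19 to 0.72 for *Birc2* and 0.17 to 0.62 for *Diablo*, with *P* above the unadjusted threshold in limma throughout. *Casp8* could not be tested under the filter at 2. In quantile normalization 2 pathway genes, and 3 of them at a filter of 2, were under the unadjusted threshold, against 5.

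Same-numbered libraries had correlations of 0.0488 to 0.411 in their deviations from the group means, with 4 of 5 pairs over 0.1. Differently numbered libraries had -0.291 to 0.274. No source says whether equal numbers mark testes of the same mouse, and these correlations cannot decide it. The main tests do not use a pairing, so their *P*-values would not hold for paired libraries. Among control libraries 1 to 5, 4 correlated best with their own number, and so did 4 of cryptorchid libraries 1 to 5. Cryptorchid libraries 6 and 7 have no control library of their number. With the replicate block, 1678 genes were called and 949 passed the adjusted *P* over all genes, *Xiap* had a difference of 0.80 (unadjusted limma *P* of 0.00379) and *Diablo* one of 0.40 (unadjusted limma *P* of 0.0142), and none of the 8 genes passed the adjusted threshold. Among the pathway genes, the block brought *Lmna* to 1.14 (limma adjusted *P* = 0.0125), *Naip6* to 3.36 (limma adjusted *P* = 0.0334) and *Cradd* to 1.87 (limma adjusted *P* = 0.0164). A fit without control replicate 3 and cryptorchid replicate 2 together was also run, but these libraries had been picked from the levels of the 8 genes themselves, so its values are not used. The causes of these changes were not tested. Read numbers were low for *Casp8*, *Casp4* and the *Naip* genes, and the part of depth in their spread was not tested.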
